A study of Drosophila melanogaster with 6 samples.

Results

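The prophenoloxidase genes PPO1, PPO2 and PPO3 and the crystal cell transcription factor genes lz and klu were described in Drosophila S2 cells. They were chosen by gene symbol: every probe set (the group of array probes that measures 1 transcript) annotated to 1 of these 5 symbols was taken. This gave 6 probe sets of 18769 that measure fly transcripts, 1 each for PPO1, PPO2, PPO3 and lz and a pair for klu, or 5 genes of 11982 with a probe set of their own. S2 cells are a line of embryonic origin with properties of hemocytes, the blood cells of the fly. Cells in 3 samples received dsRNA (double-stranded RNA, which triggers degradation of the matching mRNA) against spotted-dick, the gene now named pita, a gene for a zinc finger protein that binds DNA. Cells in the other 3 samples received dsRNA against GFP, a jellyfish protein, as the control. All 6 were incubated for 5 days, and total RNA from each was hybridised to an Affymetrix Drosophila_2 array. Both groups had the same cell line and incubation, and the labels name a single dsRNA per group and do not say whether replicates were separate cultures, so p-values measure only the spread between these samples.

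Prophenoloxidases are copper enzymes stored as inactive precursors. Once serine proteases cleave them, they oxidise phenols to quinones, which polymerise into melanin at wounds and around parasites. In the fly larva PPO1 and PPO2 are the products of crystal cells, and PPO3 is known from lamellocytes, the flat cells that encapsulate parasitoid eggs. Crystal cells arise when the Runt-domain transcription factor Lozenge (lz) acts with the GATA factor Serpent (srp) and with Notch signalling. Klumpfuss (klu) is a zinc-finger transcription factor also active in that lineage. S2 cells are usually likened to plasmatocytes, the phagocytic blood cells.

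The deposited signals are linear intensities and differed in brightness between arrays. The mean signal, with 2% trimmed from each end, ran from 125.8 to 189.6 in the GFP arrays and from 125.4 to 138.8 in the spotted-dick arrays, a 1.51-fold span. Arrays were therefore quantile-normalized before testing, and changes are given as spotted-dick RNAi minus GFP RNAi on the scale log2(normalized signal + 16). On this scale the change of a dim transcript is understated. The background level was set at a signal of 17.4, the 95th percentile of the signals of 100 probe sets against sequences foreign to the fly. The targeted gene pita read 335.9, 333.2 and 269.7 on the GFP arrays and 25.9, 46.6 and 28.7 on the spotted-dick ones, a change of -2.54 ± 0.16 (SE, n = 3 and 3, limma adjusted p = 7.64e-08). Of 11261 probe sets tested, 0.613% were called higher and 1.43% lower at a limma adjusted p under 0.05. All 6 member probe sets were bright enough to be tested. The mean of PPO1 in the GFP arrays, 4.32 on the log2 scale, lay under the brightness minimum of 4.58, so PPO1 was tested only because of its level in the spotted-dick arrays. The number of arrays limits the precision.

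PPO1 rose and was the only member called. Replicates 1 to 3 read 4.9, 4.4 and 3.3 after GFP RNAi, against 28.6, 41.0 and 26.5 after spotted-dick RNAi. Every GFP array lay under the background level and every spotted-dick array above it, so the groups did not overlap, as was the case in the upward direction for 1.39% of tested probe sets as deposited and for 9.53% after normalization, where those of PPO1 did not overlap either. The change was 1.34 ± 0.22 (SE, n = 3 and 3, limma adjusted p = 0.00283; 95% interval 0.88 to 1.80), the 7th largest rise among the tested probe sets. Because the control level was not measurable, the fold is a bound. PPO1 was at least 1.98-fold higher by normalized signals and at least 1.81-fold higher by deposited signals, with each GFP array set at the background level. Within fluidics station 1 the change was 1.15 and within station 2 it was 1.47. The station is the wash instrument named in the file headers. Spotted-dick replicate 1 shared station 1 with the first pair of GFP arrays, and GFP replicate 3 shared station 2 with spotted-dick replicates 2 and 3, so each of these values rests on a single array of 1 group. Without the brightness minimum PPO1 still passed (limma adjusted p = 0.0325; 0.197% of 18769 probe sets were then called higher), but no longer when any single array was also left out (0.0713 to 0.201), when a station or replicate block was added (0.0902 and 0.0895), or with values as deposited (0.0931). With the minimum and values as deposited it passed (limma adjusted p = 0.000495), as 0.0977% of tested probe sets did in that direction.

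PPO2, the other crystal cell enzyme, read 37.1, 11.8 and 2.5 in the GFP arrays, against 35.7, 17.3 and 25.9 in the spotted-dick arrays. The groups overlapped: GFP replicate 1 was the highest of the 6, and the remaining GFP arrays lay under all spotted-dick arrays. Only 1 GFP array and 2 spotted-dick arrays were above the background level. The change of 0.64 ± 0.29 (SE, n = 3 and 3) had an unadjusted p of 0.0417 and did not pass after adjustment (limma adjusted p = 0.374). Its 95% interval was 0.03 to 1.26. Single arrays moved it in opposite directions: the change was 0.95 without GFP replicate 1 (limma adjusted p = 0.133) and 0.34 without GFP replicate 3 (0.710). The changes within stations 1 and 2 were 0.62 and 1.12. A fit with a term for the station gave 0.87 (limma adjusted p = 0.147). The difference between the changes of PPO1 and PPO2 was not tested.

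PPO3 was above the background level on all 6 arrays. Its signal was 244.7, 205.9 and 162.0 in the GFP arrays, against 143.9, 157.8 and 130.4 in the spotted-dick arrays. As deposited, all spotted-dick arrays lay under all GFP arrays, which held in this direction for 12.6% of tested probe sets. After normalization the gap was smaller: 185.1, 183.1 and 189.0 on the GFP arrays against 164.4, 167.3 and 150.0. These groups also did not overlap, as for 8.23% of tested probe sets in that direction. The change was -0.19 ± 0.09 (SE, n = 3 and 3, limma adjusted p = 0.438; 95% interval -0.40 to 0.01), which did not pass. As deposited it was -0.45, beside a median of -0.20 over all tested probe sets. The values were -0.15 within station 1 and -0.23 within station 2. PPO3, assigned to lamellocytes in larvae, and PPO1, assigned to crystal cells, had estimates of opposite sign. Only that of PPO1 passed, and the PPO3 interval, from -0.40 to 0.01, does not fix a sign. The difference between the changes of PPO1 and PPO3 was not tested.

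**Figure D1:**
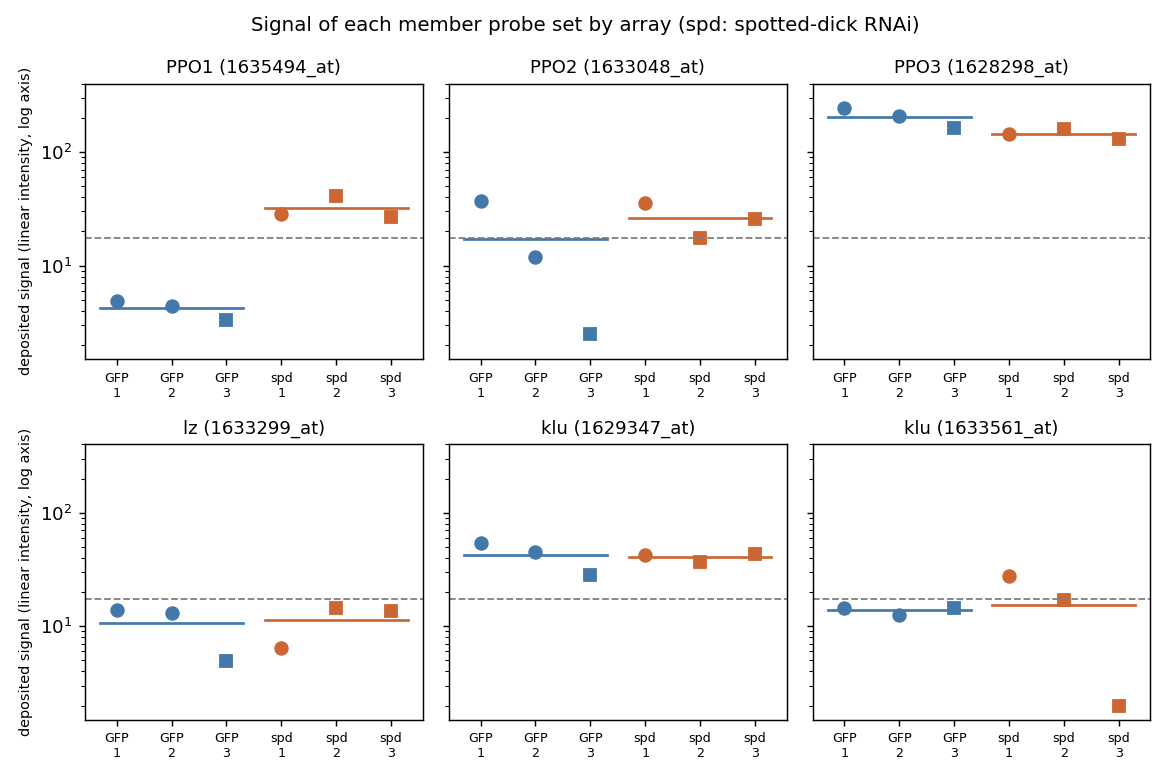
Deposited signal (linear intensity, log axis) of the 6 member probe sets on each array, GFP RNAi in blue and spotted-dick RNAi (spd) in orange, with circles for station 1, squares for station 2, horizontal bars for group means and a dashed line at the background level of 17.4. PPO1 lies under the line on all 3 GFP arrays and above it on all 3 spotted-dick arrays, while lz stays under it throughout.

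Transcripts of lz, the factor that specifies crystal cells, were not above the background level on any array. The signals were 13.9, 13.1 and 4.9 in the GFP arrays, against 6.4, 14.5 and 13.5 in the spotted-dick arrays. The lowest value of each group fell in a different station, and the groups overlapped. The change was 0.13 ± 0.25 (SE, n = 3 and 3, limma adjusted p = 0.892; 95% interval -0.41 to 0.66), with -0.36 within station 1 and 0.58 within station 2. At signals under the background level the log2 scale used here understates changes, so that interval does not bound the change of lz RNA.

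The klu probe sets differed in signal. The first of them was above the background level on every array and read 53.9, 44.8 and 28.0 in the GFP arrays, against 42.5, 36.8 and 43.3 in the spotted-dick arrays. Its groups overlapped as deposited. After normalization the GFP values of 41.4, 39.3 and 31.1 lay under the spotted-dick values of 47.3, 41.5 and 50.4, as did the groups of 9.53% of tested probe sets in that direction. The change of 0.23 ± 0.16 (SE, n = 3 and 3, limma adjusted p = 0.608; 95% interval -0.10 to 0.57) did not pass, and as deposited it was -0.010. The second probe set read 14.5, 12.6 and 14.5 in the GFP arrays, against 27.6, 17.0 and 2.0 in the spotted-dick arrays. Only spotted-dick replicate 1 exceeded the background level, and the change was 0.05 ± 0.29 (limma adjusted p = 0.961), or 0.63 within station 1 and -0.30 within station 2.

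**Figure D2:**
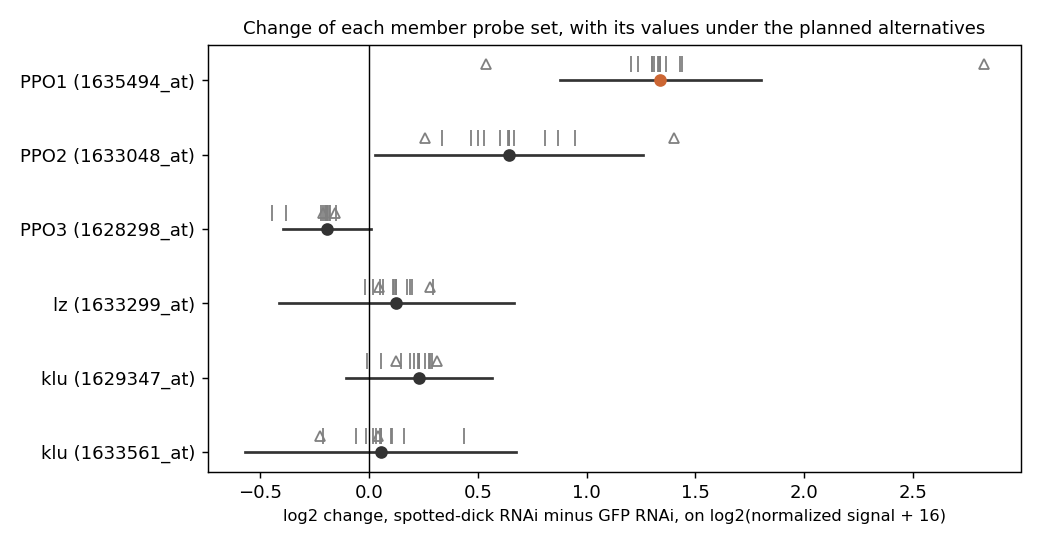
Log2 change (spotted-dick RNAi minus GFP RNAi) of each member probe set with its 95% interval from limma, in orange where called; grey bars above each are the changes under other settings of the fit and open triangles those with pseudocounts of 1 and 64. PPO1 at 1.34 is the only member called, and the pseudocount moves its change from 0.54 to 2.82.

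**Figure D3:**
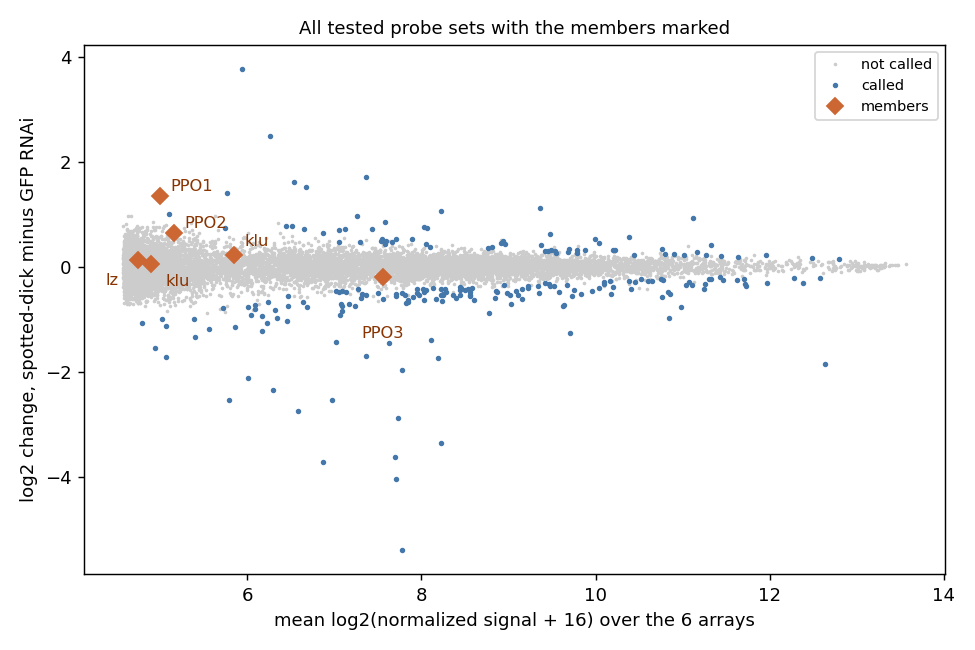
Log2 change against mean log2(normalized signal + 16) over the 6 arrays for the 11261 tested probe sets, with called ones in blue and the 6 member probe sets as orange diamonds. PPO1, PPO2, lz and 1 klu probe set lie in the dim, widely scattered range, and PPO3 lies lower among the brighter ones.

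Other crystal cell genes gave no call. Of 5 listed, 4 were tested and none passed in limma, with changes from -0.33 for CG7860 to 0.38 for CG10469 and a median of 0.04, against 0.01 over all tested probe sets. CG10469 had an unadjusted p of 0.0376 (limma adjusted p = 0.362), CG7860 one of 0.0741 (0.472) and Naprt, a nicotinate phosphoribosyltransferase gene, one of 0.623 (0.892). The zinc-finger factor gene peb (hindsight), a Notch-responsive gene of differentiating crystal cells, was too dim to be tested. Its signals were 14.7, 4.1 and 12.5 in the GFP arrays, against 4.3, 3.8 and 1.9 in the spotted-dick arrays, all under the background level. Of the crystal cell transcripts, lz, peb and CG17109 were under that level on the 3 spotted-dick arrays, in which PPO1 was above it. PPO2 was above it on 2 of these arrays and the first klu probe set on all 3. CG10469, CG7860 and Naprt were above it on every array of both groups. The part of crystal cells in the PPO1 result was not tested. In RNA from whole cultures, more cells of a type and more RNA per cell cannot be told apart.

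Among the proteases and serpins that gate prophenoloxidase cleavage, 1 of 5 tested genes fell and none rose. Of all tested probe sets 1.43% were called lower and 0.613% higher. Spn77Ba, a serpin known to restrain melanization in the tracheae, read 780.8, 711.7 and 512.7 in the GFP arrays, against 350.0, 417.1 and 356.0 in the spotted-dick arrays. The groups did not overlap, which held in this direction for 12.6% of tested probe sets as deposited and 8.23% after normalization. The change of Spn77Ba was -0.53 ± 0.07 (SE, n = 3 and 3, limma adjusted p = 0.000588). It was -0.59 within station 1 and -0.48 within station 2, and -0.79 as deposited (limma adjusted p = 0.0361), where 1.15% of tested probe sets were called lower. Its call ended when limma was run without the intensity trend (adjusted p = 0.0704) and, without the brightness minimum, with values as deposited (0.198) or median centring (0.107). The probe set was bright, at percentile 90.0 of mean level. In simulated data with seeded rises and falls of equal chance, most false calls after quantile normalization were lower calls above the median level. The real arrays had more lower than higher calls, so the simulated setting differs from theirs. Its bearing on the Spn77Ba call was not tested.

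The other serpins did not pass. Spn28Dc, which limits phenoloxidase activity after injury, had a change of -0.45 (limma adjusted p = 0.405). Spn27A, an inhibitor of the prophenoloxidase-activating step, had one of 0.14 (0.460). The protease genes Sp7 and Hayan, which act in the cleavage of prophenoloxidases, had changes of -0.05 and -0.10 (limma adjusted p = 0.888 and 0.889). The median of the 5 tested genes was -0.10, against 0.01 over all tested probe sets.

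None of 6 tested genes that supply or shape melanin precursors passed in limma. Their median change was 0.05. The smallest unadjusted p-values were 0.0165 for yellow-f (0.16, limma adjusted p = 0.252), a dopachrome-conversion enzyme gene, 0.0639 for speck (-0.53, 0.447), an arylalkylamine N-acetyltransferase gene, and 0.154 for stw (0.18, 0.599), the laccase2 gene. Pale, the tyrosine hydroxylase gene (ple), and the dopa decarboxylase gene Ddc were too dim to be tested.

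The listed blood cell transcription factors, Runt proteins and partners, and Notch-related genes did not pass either. Of the blood cell transcription factors none of 7 tested genes was called. With 1 probe set a gene, changes ran from -0.04 for zfh1 to 0.17 for the GATA factor gene pnr (limma adjusted p = 0.868 and 0.414). The chromatin remodeller gene dom had a change of 0.14 (limma adjusted p = 0.510). Further dom probe sets had changes of -0.14 and 0.09 (limma adjusted p = 0.680 and 0.681). Serpent (srp), the GATA partner of Lozenge, had normalized signals of 1224.0, 1231.9 and 1202.6 in the GFP arrays, against 1402.0, 1109.4 and 1186.3 in the spotted-dick arrays, and these groups overlapped. The crystal cell lineage partner of the Runt proteins, Bgb (the CBF-beta homologue), had a change of 0.08 (limma adjusted p = 0.834). RunxA, another Runt-domain gene, had one of -0.10 (0.926), and RunxB and Bro were too dim to be tested. Of 7 listed Notch-related genes, N, Ser and Su(H) had no probe set of their own, so the pathway was covered only in part. With 1 probe set a gene, the 4 tested genes had negative changes and none passed. The smallest p-value was that of sima, a hypoxia-inducible factor gene that acts with Notch in crystal cells (-0.27, limma adjusted p = 0.377). Hairless (H) and mam followed at -0.14 and -0.12 (limma adjusted p = 0.677 and 0.837). A further probe set of H had a change of -0.10 and one of mam 0.02 (limma adjusted p = 0.788 and 0.981).

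Markers of other blood cells gave calls in both directions. Of 9 tested plasmatocyte markers 1 rose and none fell, beside 0.613% of all tested probe sets called higher and 1.43% called lower. The list median was 0.01, as over all tested probe sets. Pxn, an extracellular matrix peroxidase, read 30.2, 11.5 and 16.8 in the GFP arrays, against 73.0, 56.9 and 62.1 in the spotted-dick arrays. The groups did not overlap, as for 1.39% of tested probe sets in that direction as deposited and 9.53% after normalization. Its change was 1.40 ± 0.18 (SE, n = 3 and 3, limma adjusted p = 0.000416), or 1.57 and 1.30 within stations 1 and 2. Without the brightness minimum, this call ended when any single array was also left out (limma adjusted p from 0.0557 to 0.142). It also ended with a station block (0.0605) or with values as deposited (0.230). PPO1 lost its call in these settings too. With median centring and no minimum, Pxn did not pass (limma adjusted p = 0.0696) and PPO1 did (0.0281). With a replicate block and no minimum, Pxn passed (0.0489) and PPO1 did not (0.0895). A further Pxn probe set was too dim to be tested.

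The scavenger receptor gene crq (-0.31, limma adjusted p = 0.0550) and the matrix gene Ppn (0.20, 0.343) came next in the plasmatocyte list. The hemolectin gene Hml had a change of -0.05 (0.861). In all, 8 of 10 plasmatocyte markers had a mean above the background level in each group, and the summed normalized signal of the 10 ran from 11321 to 11988 in the GFP arrays and from 11174 to 11563 in the spotted-dick arrays. NimC1 and Sr-CI were under the background level. The part of these cells in the PPO1 result was not tested.

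Of 4 tested lamellocyte markers 2 fell and none rose, beside 1.43% of all tested probe sets called lower and 0.613% called higher. The list median was -0.25, against 0.01 over all tested probe sets. The kinase gene msn read 1066.2, 939.9 and 691.4 in the GFP arrays, against 582.1, 584.0 and 544.1 in the spotted-dick arrays. Its change was -0.36 ± 0.07 (SE, n = 3 and 3, limma adjusted p = 0.00819), or -0.29 and -0.37 within stations 1 and 2, and its groups did not overlap, as for 12.6% of tested probe sets in that direction as deposited and 8.23% after normalization. The integrin beta gene mys, also broadly expressed outside lamellocytes, had a change of -0.34 ± 0.07 (SE, limma adjusted p = 0.0186), or -0.23 and -0.30 within stations 1 and 2. A further mys probe set had a change of -0.41 (0.0654).

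The msn call held in 14 of 27 refits under other settings and the mys call in 9 of 27, beside 17 of 26 for PPO1. Among the first-listed of these refits, described at the end, the calls held in 13 of 17 for msn and 8 of 17 for mys. That of PPO1 held in all 16. The msn and mys probe sets were both bright, at percentiles 92.9 and 98.3 of mean level. In the simulated data, most false calls after quantile normalization were lower calls above the median level. There, unlike in the real arrays, seeded rises and falls were of equal chance. The bearing of the simulation on the msn and mys calls was not tested. Neither held as deposited (limma adjusted p = 0.171 for msn and 0.0906 for mys), with median centring (0.151 and 0.0795), without the intensity trend (0.194 and 0.340) or without GFP replicate 2 (0.0762 and 0.1004). The mys call also ended without the brightness minimum (0.136), with scaling to the hybridisation controls (0.113), without GFP replicate 1 (0.109) and without spotted-dick replicate 2 or 3 (0.0569 and 0.129). The filamin gene cher had a change of -0.17 (limma adjusted p = 0.361) and the integrin alpha gene ItgaPS4 one of -0.10 (0.915). Atilla, the surface antigen that defines lamellocytes, was too dim to be tested. The summed normalized signal of the 5 listed genes was 5012 to 5305 in the GFP arrays and 3941 to 4735 in the spotted-dick arrays, beside which the PPO3 change of -0.19 did not pass. Almost all of that sum came from mys, msn and cher, which are also expressed in other cells, while normalized signals were 2.4 to 13.1 for atilla and 6.8 to 23.3 for ItgaPS4. The part of these markers in the PPO3 values was not tested.

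No call came from the markers of tissues outside the blood or from the larval serum proteins, which belong to the same protein superfamily as the prophenoloxidases. Of the larval serum list only Lsp2 was tested (-0.14, limma adjusted p = 0.898). The muscle, neuron and germline lists had 1, 3 and 3 tested genes. Act88F had a change of 0.07 (limma adjusted p = 0.952). The neuronal genes elav, para and brp had changes of -0.34, 0.16 and 0.08 (0.389, 0.864 and 0.880). The germline genes vas, bam and osk had changes of -0.23, 0.06 and -0.04 (0.741, 0.945 and 0.965).

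**Figure D4:**
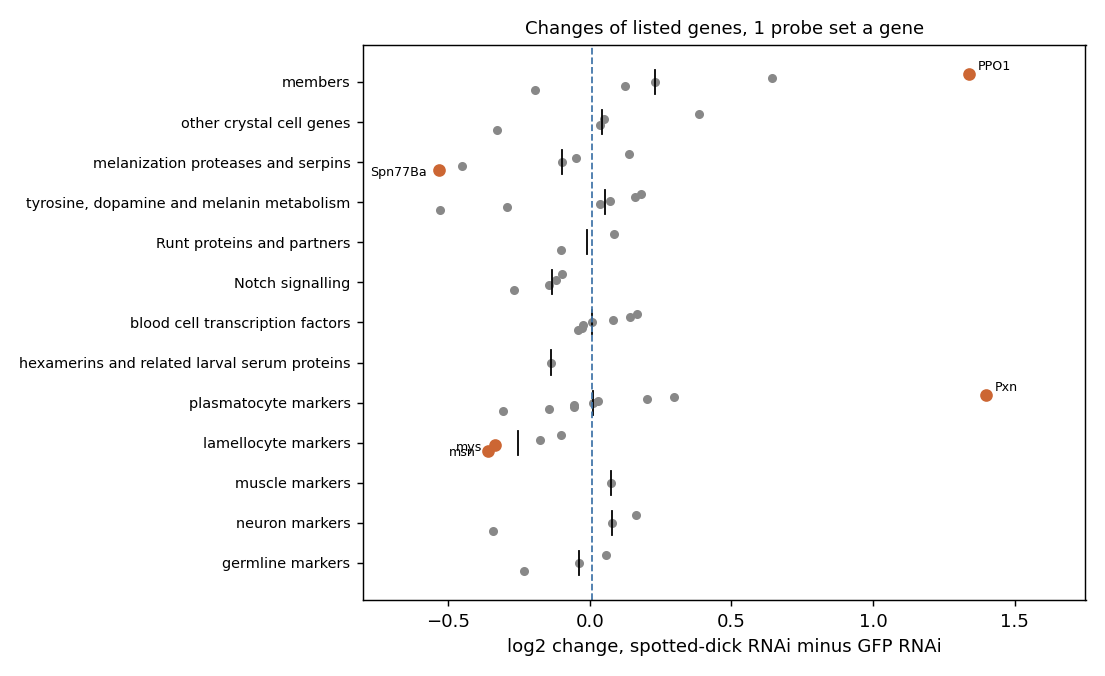
Log2 change (spotted-dick RNAi minus GFP RNAi) of the tested genes of each list, 1 probe set a gene, in orange with the gene name where called and in grey otherwise; black ticks are list medians and the dashed line is the median of all tested probe sets. PPO1 and Pxn stand on the right at 1.34 and 1.40, and Spn77Ba, msn and mys on the left.

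The genes whose normalized log2 values followed PPO1 most closely over the 6 arrays were SP1029 (Pearson r = 0.998), the katanin subunit gene kat80 (0.995), CG8369 (0.992), the amino acid transporter subunit gene CD98hc (0.990) and slow (0.989). The 6 points share arrays and the split into 2 groups, so these values are a description. They were picked for following PPO1, whose groups did not overlap, so positive changes follow from that choice. SP1029, kat80 and CG8369 were called higher (changes of 0.30, 1.07 and 0.62, limma adjusted p = 0.0175, 1.07e-05 and 4.96e-05). CD98hc and slow were not (0.19 and 0.32, 0.0932 and 0.109). As deposited, the GFP and spotted-dick means were 679.0 and 688.4 for SP1029, 210.2 and 379.5 for kat80, and 617.3 and 784.4 for CG8369. All 5 changes were smaller than that of PPO1.

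The genes closest to the first klu probe set were Taz (r = 0.986), the actin gene Act79B (0.978), Elp4 (0.977), rdgBbeta (0.969) and the MCM helicase gene Mcm2 (0.969). None of them was called in limma (adjusted p from 0.114 to 0.754). For the second klu probe set they were Sardh (0.976), Tsp2A (0.975), Sur (0.973), MED27 (0.966) and CG9636 (0.965), with changes from -0.01 to 0.10.

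In the RefSeq gene order, lz stands between c11.1 and c12.1. The signal of c11.1 was 565.3, 494.6 and 365.4 in the GFP arrays, against 130.2, 148.8 and 137.7 in the spotted-dick arrays. Its change was -1.39 ± 0.08 (SE, n = 3 and 3, limma adjusted p = 4.86e-08), or -1.46 and -1.34 within stations 1 and 2, and it passed in all 27 refits under other settings. This gene was singled out after its value was seen. On the other side c12.1 had a change of 0.08 (limma adjusted p = 0.796), with overlapping groups. The other neighbours of members were not called: CG9890 and l(2)k09913 beside PPO3 had changes of 0.12 and -0.09 (limma adjusted p = 0.682 and 0.565) and CG14147 beside klu one of 0.40 (0.545). Both neighbours of PPO1 (CG30110 and CG14492), both of PPO2 (Ance-4 and CG13743) and Fad2 beside klu were too dim to be tested.

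**Figure D5:**
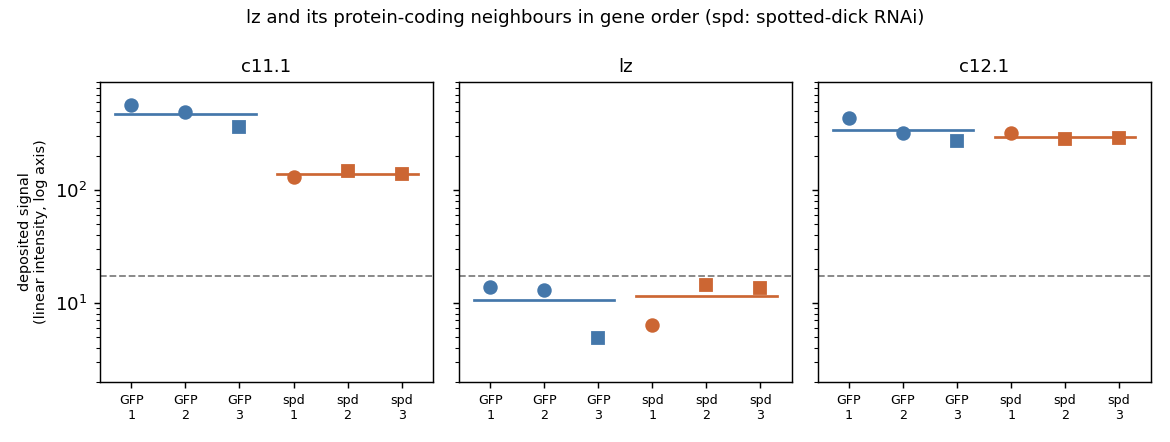
Deposited signal (linear intensity, log axis) of c11.1, lz and c12.1 by array, with colours, symbols and the dashed background line at 17.4 as in the plot of member signals. All 3 spotted-dick arrays of c11.1 lie under the GFP arrays, whereas the groups of lz and of c12.1 overlap.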

How the data were processed

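The deposited values were 1 linear intensity per probe set and array from Affymetrix Drosophila_2 arrays, per the file headers. The authors' probe summarisation and scaling are not given in the sources, and detection calls were not analysed here. Genes were named from the platform annotation, updated by gene ID through RefSeq (Release 6; 13544 of 18769 fly probe sets matched). The array's genome build is not stated, so no coordinates are given. Signals of all 18894 probe sets were quantile-normalized, 16 was added, log2 was taken, and probe sets with a mean under the 40th percentile were left out. Both groups were compared in limma 3.58.1 (R 4.3.3), using lmFit and trended eBayes, with Benjamini-Hochberg adjustment over 11261 probe sets. Of a listed gene's probe sets, that with the highest mean was used. Named were all members, pita, called list members or otherwise up to 3 with the smallest p, and the 5 genes most correlated with PPO1 and with klu. Neighbours, and list genes outside this rule (among them crq, Ppn, Hml, cher, ItgaPS4, srp and the uncalled serpins and proteases), were named after their values were seen. The fit was tested on simulated data with seeded rises and falls of equal chance. It called the seeded changes, but more of its calls than the nominal share were false. These false calls were mostly probe sets above the median level called lower. Without quantile normalization fewer were false, but fewer of the smaller seeded changes were called. The GFP arrays were scanned before the others on the same day, so group and order of scanning cannot be told apart. No 2 arrays held identical values. The members and lists were chosen with earlier results of these data known. Plots used matplotlib 3.10.9 (Python 3.11.15).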

Additional observations from a re-analysis of the deposited data

How the results depend on the processing

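PPO1 passed in all 16 of the first-listed alternatives in which it was tested, themselves chosen with earlier results known (highest limma adjusted p = 0.0325) and was too dim for the minimum at the 60th percentile. Further alternatives, chosen after seeing the data, dropped the brightness minimum together with 1 other change. PPO1 then did not pass as deposited (change 1.24), with the station as a block (1.31), with the replicate block (1.34), or without any array (1.21 to 1.44 over all refits without 1 array). Calls of PPO2, PPO3, lz and klu were unchanged in the alternatives run. The sign of lz reversed without GFP replicate 3 (-0.017; 0.30 at most without another array). That of the first klu probe set reversed as deposited, with or without the minimum (-0.010). That of the second reversed as deposited, with or without the minimum (-0.013), with a pseudocount of 1 (-0.22), and without spotted-dick replicate 1 or 2 (-0.21 to 0.44 over all arrays left out). The cause was not tested. Same-numbered replicates did not pair (correlations of -0.06, -0.03 and 0.05). With the replicate block 53 probe sets were called higher and 145 lower, against 69 and 161. With 1 array left out the counts ran from 34 to 79 higher and from 82 to 170 lower, and from 15 to 24 and from 39 to 80 with the minimum dropped as well. As deposited they were 11 higher and 129 lower, with median centring 16 and 151, without the trend 18 and 35. Without the minimum they were 37 and 89, or, together with deposited values, median centring, the station block and the replicate block, 4 and 24, 7 and 37, 20 and 66, and 21 and 73. Over all tested probe sets the change had a median of -0.20 as deposited and -0.14 with median centring.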
